A study of Mus musculus with 10 samples.

Results

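The IGF1, insulin and AKT growth axis with its nuclear arm, C/EBPβ and CITED4, was followed here through 10 genes: the ligand Igf1, the receptors Igf1r and Insr, the adaptors Irs1 and Irs2, the kinases Pik3ca, Akt1 and Akt2, and the transcriptional regulators Cebpb and Cited4. Their Ensembl identifiers were matched to symbols by GENCODE. All 10 genes had enough reads to be tested, among 15454 genes tested of 56748 identifiers in the count tables.

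RNA was sequenced from whole hearts, with both atria and the ventricles, of wild-type male C57BL/6 mice, 8 weeks old when bought. The training group, with the treatment label Exercise, held 5 mice that ran for 8 weeks on a treadmill at 15 m/min for 120 min a day on 5 days a week. The sedentary group, with the label Control, held 5 mice that did not train. Each library came from 1 heart, and the labels name neither a transgene nor a drug in any mouse. The libraries held between 29461697 and 35945417 counts on genes in the training group and between 35196993 and 39431030 in the sedentary group. In whole tissue, fewer cells of a type and less RNA per cell cannot be told apart.

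The hearts carried the markers that their label calls for. The 7 cardiomyocyte markers summed to between 49230 and 53430 CPM (read counts scaled to the size of the library) in the training hearts and to between 50830 and 57450 CPM in the sedentary hearts, while the 6 skeletal muscle markers summed to at most 4.20 CPM, with Myh1, Myh2 and Myh4 under 1 CPM. The share of atrial tissue was not given, and the 7 atrial markers summed to between 5185 and 7792 CPM in the training hearts and to between 2865 and 6969 CPM in the sedentary hearts. Sedentary hearts 2 and 5, at 2865 and 2894 CPM, stood below all others in this sum. The fits were therefore repeated without these 2 hearts and with the atrial score in the model. This score moved with the group, from 0.059 to 0.68 in training and from -0.97 to 0.34 in sedentary hearts.

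IGF1 and insulin bind related receptor tyrosine kinases, which phosphorylate the adaptors IRS1 and IRS2. The adaptors recruit PI3 kinase, whose lipid product brings AKT to the membrane, where it is activated and then acts on mTORC1, FOXO factors and glycogen synthase kinase. In the heart this route is known for physiological growth with exercise, and mouse work has placed a fall of C/EBPβ and a rise of its partner CITED4 downstream of endurance exercise. Most steps of this route are set by phosphorylation, which RNA does not measure.

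Of the 10 genes, only Cited4 passed the test, and it was lower in the training hearts. At a false discovery rate (FDR) below 0.1, 7.01% of all tested genes were called, 2.75% higher and 4.26% lower in training. The count of 1 of 10 genes is therefore close to the background. By log2 fold change, 5 genes lay above 0 and 5 below, with a median of 0.00024 beside a median of 0.00026 for all tested genes. At an unadjusted p below 0.05 there were 3 of the 10 genes (Cited4, Igf1r and Irs1), and 3087 or 20.0% of all tested genes. In none of the 10 genes were the 5 training hearts all on one side of the 5 sedentary hearts, as was the case in 5.06% of all tested genes.

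**Figure D1:**
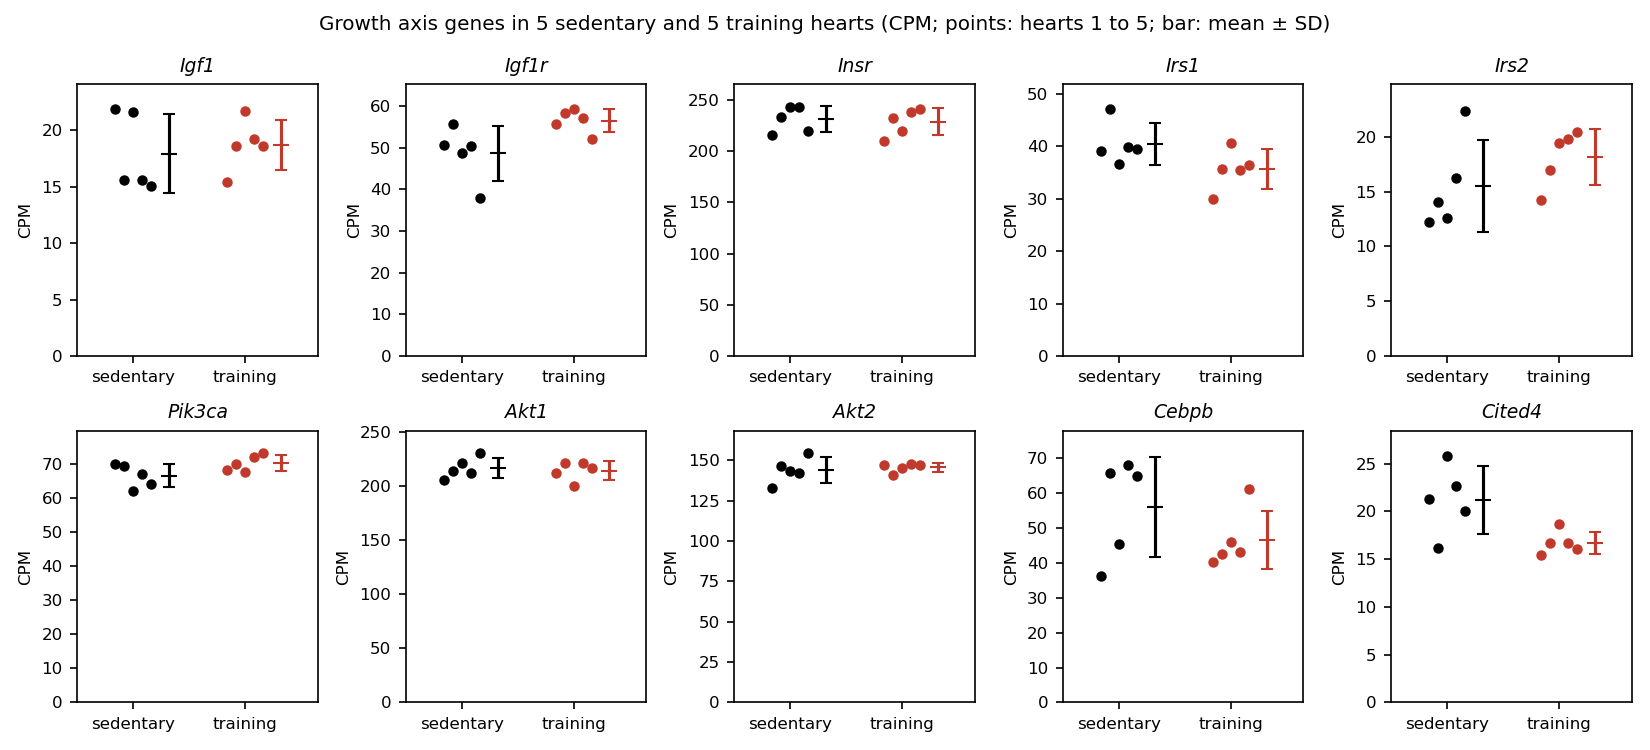
Normalised read counts (CPM, y axes from 0) of the 10 growth axis genes in each sedentary (black) and training (red) heart, with hearts 1 to 5 from left to right and the mean ± SD beside them. The groups overlap in every panel, and the Cited4 panel shows 4 of the 5 sedentary hearts above all training hearts.

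Cited4 encodes a transcriptional co-activator that binds CBP and p300 and has no DNA-binding domain of its own. The gene (ENSMUSG00000070803) lies on the plus strand of chromosome 4 of GRCm39, from 120523769 to 120525017, and no other annotated exon overlaps it. Its upstream sequence is shown because Cited4 was the only gene of the axis that passed the test. The 250 bases before its RefSeq start, at chr4:120666313-120666562 of GRCm38.p6 on the plus strand, occur once in GRCm39, at chr4:120523510-120523759. Capitals mark TATAAA and CCAAT, which were added to the search after the sequence was seen.
Cited4 promoter: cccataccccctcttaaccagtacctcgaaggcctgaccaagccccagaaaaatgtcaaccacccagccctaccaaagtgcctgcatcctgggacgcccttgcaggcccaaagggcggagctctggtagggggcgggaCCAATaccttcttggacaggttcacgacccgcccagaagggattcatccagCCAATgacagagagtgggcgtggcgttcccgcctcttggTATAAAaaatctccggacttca
TATAAA begins at base 229 and CCAAT at bases 139 and 190, counted from 1 at the 5′ end. On either strand, TATAAA occurs in 13.6% and CCAAT in 37.4% of the 32851 promoter windows of the RefSeq table. The C/EBP motif TTGCGCAA, its looser form TTGCNNAA, the FOXO motif GTAAACA and the E-box CACGTG are not among the letters of the 300 base window from which this stretch is taken. They occur in 0.183%, 10.8%, 3.65% and 7.15% of all windows. TTGCGCAA is 1 case of TTGCNNAA. Among the other genes of the axis, CACGTG was found upstream of Irs1 and Irs2 and GTAAACA in a promoter of Akt1, and Insr has no entry in the table. TATAAA also occurs in the window of Cebpb, and CCAAT in those of Igf1 and Irs2 and in a window of Akt2. These matches describe letters and not binding.

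Cited4 was at 15.5, 16.6, 18.6, 16.7 and 16.1 CPM in training hearts 1 to 5 and at 21.3, 16.2, 25.8, 22.6 and 20.0 CPM in sedentary hearts 1 to 5. All 5 training hearts were below the sedentary mean, and the groups overlapped through sedentary heart 2 alone. The mean was 16.7 ± 1.19 CPM (SD, n = 5) in training and 21.2 ± 3.52 CPM (SD, n = 5) in sedentary hearts. On the log2 scale this was a difference of -0.34 (SE, the standard error, 0.099; 95% interval -0.56 to -0.13), a 0.788-fold level, and edgeR's quasi-likelihood test gave a Benjamini-Hochberg adjusted p of 0.0747. Each library held between 484 and 969 Cited4 counts.

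This call was close to the threshold. It was kept in 4 of 10 fits on 9 hearts each and lost without training heart 1, 2, 4 or 5 or sedentary heart 3 or 4, with adjusted p between 0.0272 and 0.168 over the 10 edgeR fits. The log2 fold change stayed below 0 in all 10, between -0.43 and -0.26. Without the 2 sedentary hearts of low atrial markers it was -0.47 (adjusted p = 0.0225 from edgeR), and with the atrial score in the model it was -0.53 (adjusted p = 0.0783). The difference was larger in both of these fits. However, the hearts left out, sedentary 2 and 5, were also the lowest sedentary hearts in Cited4, at 16.2 and 20.0 CPM. Leaving them out was bound to widen the difference, whatever their atrial share. The part of atrial tissue in the Cited4 values was not tested.

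By Pearson's correlation of log2 CPM over the 10 hearts after each group's mean was taken off, the 3 protein-coding genes most like Cited4 were Setd5 (r = 0.919), Esr1 (r = 0.912) and Ifih1 (r = 0.912). They were picked as the best of 13562 genes, so high values were bound to occur. Spearman's rho was 0.794, 0.915 and 0.539 in the same order. Without the 2 hearts farthest from the median of Cited4, r was 0.883 for Setd5, 0.694 for Esr1 and 0.533 for Ifih1.

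Cebpb, the gene of the C/EBPβ transcription factor, had the widest spread between hearts of the 10 genes, with a pooled coefficient of variation of 22.1%. It lies on chromosome 2 from 167530835 to 167532338 of GRCm39 (ENSMUSG00000056501), and an exon of Peds1 overlaps it on the other strand. Only 1.51% of its stranded counts were on the strand opposite to the gene. Cebpb was at 40.4, 42.5, 46.0, 43.2 and 61.2 CPM in training hearts 1 to 5 and at 36.2, 65.6, 45.5, 67.9 and 65.0 CPM in sedentary hearts 1 to 5. Sedentary hearts 2, 4 and 5 exceeded every training value, while sedentary heart 1 was below all of them. Its log2 fold change was -0.26 (SE 0.161, 95% interval -0.61 to 0.08, adjusted p = 0.391 from edgeR), an interval that covers 0.

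The Cebpb estimate depended on the model more than that of the other genes. With the atrial score as a covariate the log2 fold change was 0.041 (adjusted p = 0.957 from edgeR). With the score of 14 circadian clock genes as a covariate it was -0.42, and the gene passed (adjusted p = 0.0325). Without sedentary heart 1 it was -0.39 and passed as well (adjusted p = 0.098). That heart had the highest atrial sum of the sedentary group, at 6969 CPM, and the lowest Cebpb. The clock genes moved with the group, with 8 of 14 called, 5 of them higher and 3 lower in training, beside 7.01% of all tested genes called. The 14 clock genes summed to between 738 and 904 CPM in training and between 588 and 840 CPM in sedentary hearts. Their score is a mean over genes with 8 log2 fold changes above 0 and 6 below, so opposite shifts partly cancel in it. The part of either score in the Cebpb values was not tested.

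The other members of both families did not pass the test. Cebpd, another C/EBP factor, had a log2 fold change of -0.33 (adjusted p = 0.444 from edgeR) and Cebpa one of 0.13 (adjusted p = 0.722). Cited2, a close relative of Cited4, had a log2 fold change of 0.09 (SE 0.0824, adjusted p = 0.579). Cited2 and Cited4 thus had estimates on opposite sides of 0, though the difference between these genes was not tested.

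At the top of the axis, Igf1, the ligand gene, did not differ beyond the spread between hearts. It lies on chromosome 10 from 87693642 to 87772904 (ENSMUSG00000020053). Igf1 was at 15.5, 18.6, 21.7, 19.3 and 18.6 CPM in training hearts 1 to 5 and at 21.9, 15.6, 21.6, 15.6 and 15.1 CPM in sedentary hearts 1 to 5. The sedentary hearts fell into a pair near the highest training value and 3 hearts near the lowest. Between the groups, the log2 fold change was 0.06 (SE 0.118, 95% interval -0.19 to 0.31, adjusted p = 0.830 from edgeR). It was -0.16 with the atrial score in the model and -0.069 without the 2 sedentary hearts of low atrial markers, so its sign was not determined. RNA of the heart does not include IGF1 that the liver releases into the blood.

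Igf1r, the gene of the IGF1 receptor, gave the second lowest p of the axis. It lies on chromosome 7 from 67601518 to 67883416 (ENSMUSG00000005533). Igf1r was at 55.8, 58.3, 59.3, 57.1 and 52.2 CPM in training hearts 1 to 5 and at 50.7, 55.8, 48.7, 50.4 and 37.9 CPM in sedentary hearts 1 to 5. All 5 training hearts were above the sedentary mean and 3 were above every sedentary heart, while sedentary heart 5 was far below the rest. The estimate for Igf1r was 0.22 on the log2 scale (SE 0.0803, 95% interval 0.04 to 0.39), with an unadjusted p of 0.018 and an adjusted p of 0.155 in edgeR's quasi-likelihood test. Without sedentary heart 5 the log2 fold change was 0.14 (adjusted p = 0.187 from edgeR). In 4 of 14 other settings, the clock covariate and library totals alone among them, Igf1r passed the threshold.

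Insr, the insulin receptor gene, was among the steadier of the 10 genes. It lies on chromosome 8 from 3172061 to 3329647 on the minus strand (ENSMUSG00000005534). Insr was between 210.1 and 241.6 CPM, with a median of 232.7, in training hearts and between 216.1 and 243.1 CPM, with a median of 233.5, in sedentary hearts. The 2 ranges covered one another almost fully. Its log2 fold change was -0.02 (SE 0.0501, adjusted p = 0.892 from edgeR), and the 95% interval of -0.12 to 0.09 leaves room for small changes only.

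The adaptor genes Irs1 and Irs2 had estimates of opposite sign, and neither passed. Irs1 lies on chromosome 1 from 82210822 to 82269338 (ENSMUSG00000055980), and Irs2 on chromosome 8 from 11034681 to 11059499 (ENSMUSG00000038894), both on the minus strand. Irs1 was at 30.0, 35.6, 40.6, 35.4 and 36.4 CPM in training hearts 1 to 5 and at 39.1, 47.1, 36.5, 39.9 and 39.4 CPM in sedentary hearts 1 to 5. Apart from training heart 3, every training heart was below the lowest sedentary heart. The log2 fold change of Irs1 was -0.18 (SE 0.0782, 95% interval -0.35 to -0.01), with an unadjusted p of 0.0367 and an adjusted p of 0.217 in edgeR's quasi-likelihood test.

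Irs2 was at 14.3, 17.0, 19.5, 19.8 and 20.5 CPM in training hearts 1 to 5 and at 12.2, 14.1, 12.6, 16.3 and 22.4 CPM in sedentary hearts 1 to 5. Sedentary heart 5 was the highest of all 10 hearts, while the other sedentary hearts were at or below 16.3 CPM. The estimate for Irs2 was 0.23 on the log2 scale (SE 0.15, 95% interval -0.09 to 0.55, adjusted p = 0.430 from edgeR). Without sedentary heart 5 it was 0.40 and passed (adjusted p = 0.0856). It was 0.44 with the atrial score in the model and 0.41 without both sedentary hearts of low atrial markers, and 0.11 with the clock score, with none of these passing (adjusted p = 0.420, 0.151 and 0.622 from edgeR). Sedentary heart 5 thus held the lowest Igf1r and the highest Irs2 of the series, besides one of the 2 lowest atrial sums.

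Pik3ca, Akt1 and Akt2 showed the narrowest spread. Pik3ca encodes the catalytic p110α subunit of PI3 kinase and lies on chromosome 3 from 32451820 to 32522635 (ENSMUSG00000027665). Pik3ca was between 67.8 and 73.2 CPM (median 70.0) in training hearts and between 62.0 and 69.9 CPM (median 67.2) in sedentary hearts, which overlapped. Its log2 fold change was 0.08 (SE 0.0435, 95% interval -0.02 to 0.17, adjusted p = 0.341 from edgeR).

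Akt1 and Akt2 encode the main AKT kinases of the heart. Akt1 lies on chromosome 12 from 112620248 to 112645654 (ENSMUSG00000001729), where Mir6939 lies within its exons on the same strand, and Akt2 on chromosome 7 from 27284378 to 27340262 (ENSMUSG00000004056). Akt1 was at 214 ± 8.84 CPM (SD, n = 5) in training and 217 ± 9.62 CPM (SD, n = 5) in sedentary hearts, with a log2 fold change of -0.02 (95% interval -0.11 to 0.08, adjusted p = 0.875 from edgeR). Akt2 was between 141.2 and 147.5 CPM in training and between 133.1 and 154.7 CPM in sedentary hearts, with a log2 fold change of 0.02 (95% interval -0.07 to 0.11, adjusted p = 0.865 from edgeR). The groups overlapped for both kinases. The pooled coefficient of variation was 4.29% for Akt1, 4.06% for Akt2 and 4.31% for Pik3ca, beside 12.8% for Cited4 and 21.5% for Irs2.

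**Figure D2:**
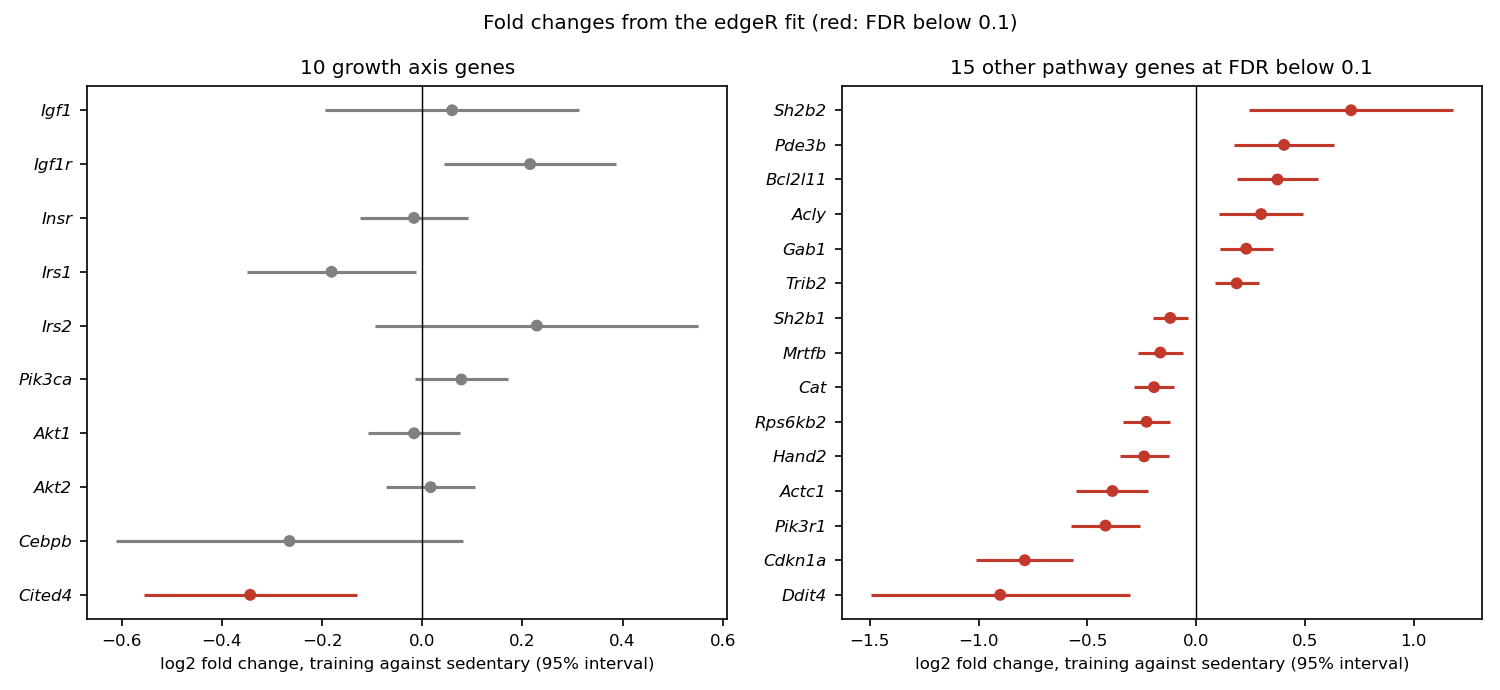
Log2 fold changes of training against sedentary hearts (points) with 95% intervals (lines) from edgeR, for the 10 growth axis genes on the left and for the 15 other pathway genes that passed an FDR of 0.1 on the right; red marks genes that passed. On the left only the interval of Cited4 is red, at -0.34, while those of Igf1r and Irs1 leave out 0 without passing the adjusted threshold.

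Levels between genes were compared per length, in TPM of RSEM, which scales counts to gene length and library. Over the 10 hearts the mean TPM was 97.5 for Akt1, 74.8 for Akt2, 37.5 for Cebpb, 28.6 for Insr, 17.2 for Cited4, 13.8 for Pik3ca, 5.69 for Igf1r, 5.30 for Igf1, 4.33 for Irs1 and 2.81 for Irs2. The AKT kinases were thus the most abundant in RNA, and the ligand and adaptors the least. The ranges over the 10 hearts overlapped between the neighbours Cebpb and Insr, Cited4 and Pik3ca, Igf1r and Igf1, Igf1 and Irs1, and Irs1 and Irs2. The other neighbours in this order were apart in all hearts. Computed from the STAR counts with the same lengths, the order was the same, but Akt1 was at 156.6 and Akt2 at 87.7 TPM. The gap between these genes thus depends on the way of counting. Cebpb was at 59.1 and Insr at 45.5 TPM in that count, so Akt2 rose proportionally the least of the 10 genes. The reason was not tested.

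**Figure D3:**
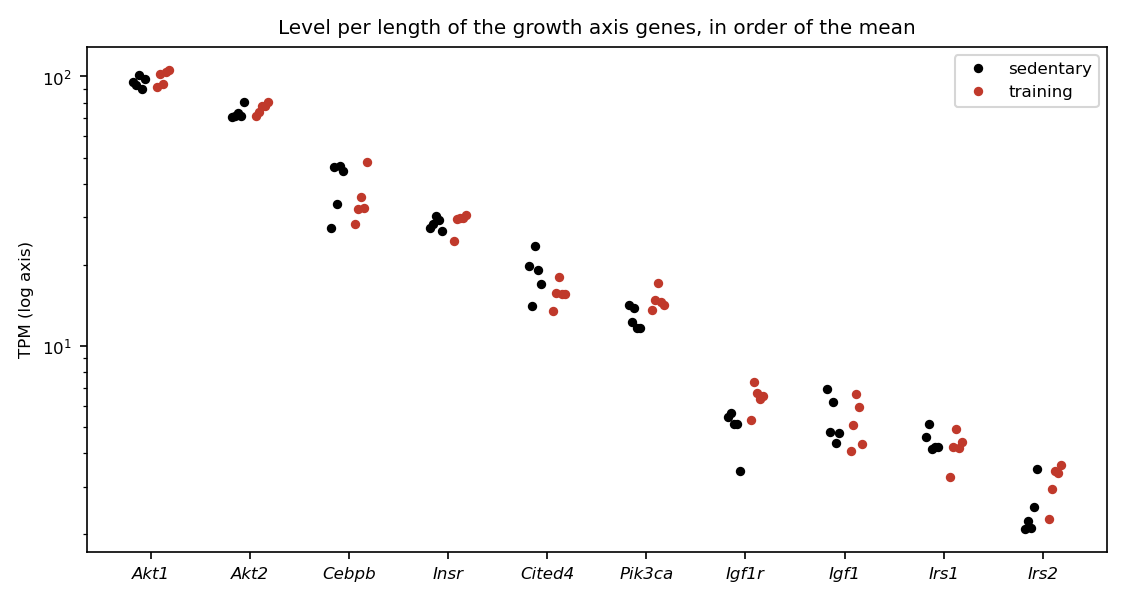
Level per length (TPM of RSEM, logarithmic y axis) of the 10 growth axis genes, ordered by their mean, with 1 point per sedentary (black) or training (red) heart. Akt1 and Akt2 are highest, at means of 97.5 and 74.8 TPM, and Irs2 is lowest, at 2.81 TPM.

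The insulin receptor RNA exceeded the IGF1 receptor RNA in every heart. The ratio of Igf1r to Insr in TPM was between 0.211 and 0.248 in training and between 0.129 and 0.200 in sedentary hearts, without overlap, but in CPM it was between 0.216 and 0.270 in training and between 0.173 and 0.239 in sedentary hearts, with overlap. The ratio of Irs1 to Irs2 in TPM ran from 1.21 to 1.44 in training and from 1.21 to 2.29 in sedentary hearts. That of Cebpb to Cited4 ran from 1.98 to 3.09 in training and from 1.38 to 3.28 in sedentary hearts, with no sign of separate groups. These ratios are descriptions without a test.

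Around the 10 genes, 143 other genes of the pathway were taken from 8 lists, and 137 of them were tested. Of these, 15 or 10.9% passed the FDR of 0.1 (6 higher and 9 lower in training), beside 7.01% of all genes. The log2 fold changes lay above 0 for 68 genes and below 0 for 69, with a median of -0.0017. No overlap between the groups was seen for 11 of the 137 genes or 8.03%, beside 5.06% of all genes. The lists were written with earlier results of these data known, so these shares are descriptions and not a test. For the counts of the single lists below, 2.75% of all tested genes were called higher and 4.26% lower, and 50.1% lay above 0.

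**Figure D4:**
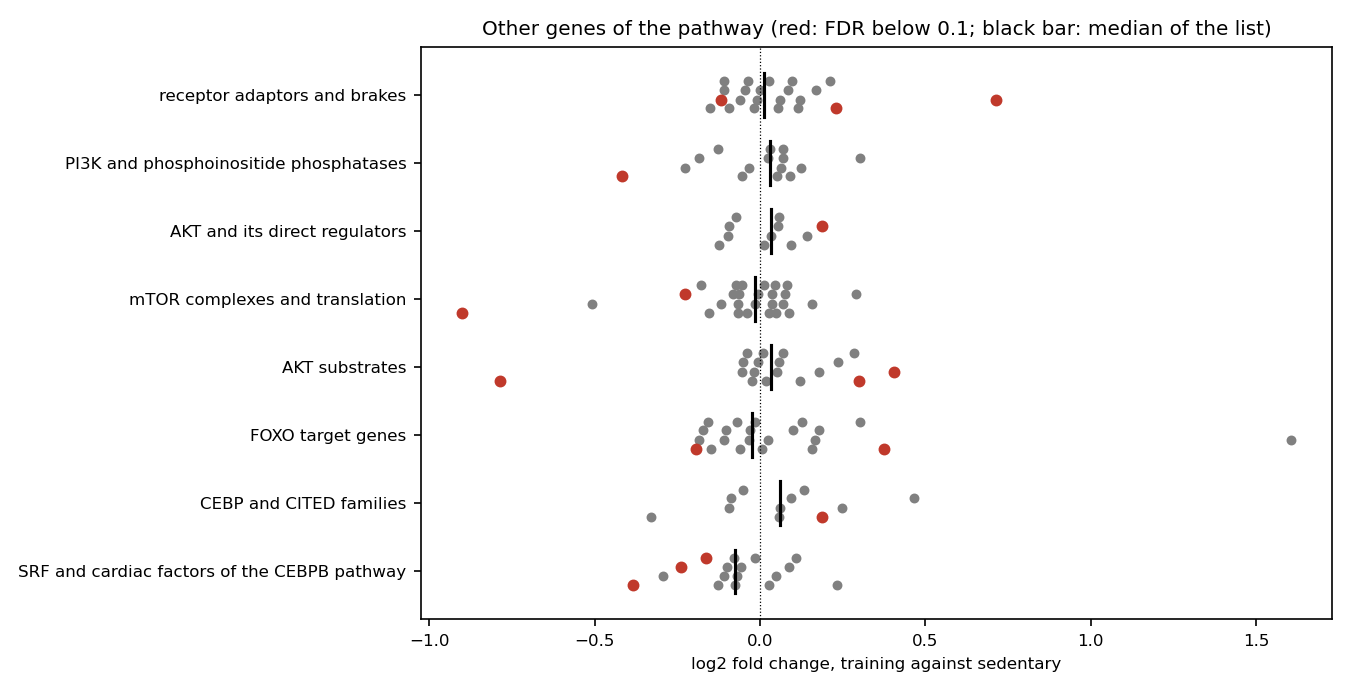
Log2 fold changes (x axis) of the other tested genes of the pathway in each of the 8 lists (y axis, points shifted vertically for clarity); red marks genes at an FDR below 0.1 and the black bar the median of the list. The medians lie between -0.075 and 0.061, and the point at 1.60 is Pck1, which did not pass.

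Among receptor adaptors and brakes, 3 of 22 tested genes passed, 2 higher and 1 lower. Gab1, a docking protein that recruits PI3 kinase and SHP2, was at 62.9, 64.1, 60.7, 65.7 and 72.6 CPM in training hearts 1 to 5 and at 49.7, 57.8, 54.9, 55.8 and 59.6 CPM in sedentary hearts 1 to 5. Every training heart was above every sedentary heart. On the log2 scale Gab1 was higher by 0.23 (SE 0.0572, adjusted p = 0.0448 from edgeR). Sh2b2, an adaptor of the insulin receptor, was higher by 0.71 (adjusted p = 0.0912) at a low level of at most 2.22 CPM, and Sh2b1, a related adaptor, was lower, at -0.12 (adjusted p = 0.0957). Both of the latter passed in at most 3 of the 10 fits without 1 heart, while Gab1 passed in 9.

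Among 15 genes of PI3 kinase and the phosphoinositide phosphatases, only Pik3r1 passed. It encodes the p85α regulatory subunit that binds p110α to the IRS proteins. Pik3r1 was at 211.3, 170.4, 224.5, 182.7 and 215.5 CPM in training hearts 1 to 5 and at 260.5, 252.6, 251.3, 297.7 and 278.5 CPM in sedentary hearts 1 to 5. The lowest sedentary heart was above the highest training heart. Its log2 fold change was -0.42 (SE 0.0747, adjusted p = 0.0153 from edgeR), it passed in all 10 fits without 1 heart, and it was -0.48 (adjusted p = 0.0783) with the atrial score in the model. The other regulatory subunit genes of the list did not pass. In edgeR, Pik3r2 was at 0.09 (adjusted p = 0.322), Pik3r3 at -0.03 (adjusted p = 0.862) and Pik3r5 at -0.05 (adjusted p = 0.888). The catalytic subunit genes Pik3ca and Pik3cb, the latter at 0.12 (adjusted p = 0.192), did not pass either.

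Of 11 tested AKT regulators, Trib2 alone passed. This pseudokinase, also counted with the C/EBP family because it drives the breakdown of C/EBPα, was at 38.1 ± 2.00 CPM (SD, n = 5) in training and 33.5 ± 1.37 CPM (SD, n = 5) in sedentary hearts, without overlap. Its log2 fold change was 0.19 (adjusted p = 0.0459 from edgeR).

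In the list of mTOR complexes and translation, 2 of 27 genes passed, both lower, and Mtor itself was at -0.12 (adjusted p = 0.168 from edgeR). Rps6kb2, an S6 kinase, was at 14.5 ± 0.772 CPM (SD, n = 5) in training and 17.0 ± 0.409 CPM (SD, n = 5) in sedentary hearts, without overlap, a log2 fold change of -0.23 (adjusted p = 0.0302). Ddit4, a stress-induced inhibitor of mTORC1, was at 26.5, 32.6, 35.1, 56.5 and 55.6 CPM in training hearts 1 to 5 and at 31.6, 108.8, 74.1, 94.2 and 75.9 CPM in sedentary hearts 1 to 5. Sedentary heart 1, also the lowest sedentary heart in Cebpb, lay within the training range, and the other sedentary hearts above it. The log2 fold change of Ddit4 was -0.90 (SE 0.277, adjusted p = 0.0932 from edgeR), and it passed in 2 of the 10 fits without 1 heart. With the atrial score in the model it was -0.39 (adjusted p = 0.702 from edgeR), and DESeq2 did not call it either (adjusted p = 0.114).

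Among 18 AKT substrates, 2 genes rose and 1 fell. Cdkn1a, which encodes the cell cycle inhibitor p21, was at 94.1, 106.7, 103.5, 101.9 and 90.2 CPM in training hearts 1 to 5 and at 180.1, 213.6, 183.8, 136.8 and 142.6 CPM in sedentary hearts 1 to 5. All training hearts were below all sedentary hearts. With a log2 fold change of -0.79 (SE 0.103, adjusted p = 0.00504 from edgeR), it had the lowest adjusted p of the 15 genes, and it passed in all 10 fits without 1 heart. Pde3b, a cAMP phosphodiesterase that insulin activates in fat cells, was higher by 0.40 (adjusted p = 0.0551), and Acly, which makes cytosolic acetyl-CoA, by 0.30 (adjusted p = 0.0861), both with overlap between the groups. Pde3b passed in 5 and Acly in 4 of the 10 fits without 1 heart, and with the atrial score in the model neither passed, Pde3b at 0.20 (adjusted p = 0.561 from edgeR) and Acly at 0.28 (adjusted p = 0.421). The 7 adipocyte markers summed to between 20.7 and 178 CPM in training and between 18.1 and 139 CPM in sedentary hearts. All 6 that were tested had log2 fold changes above 0, with a median of 0.74, and none passed. The part of adipocytes in the values of Pde3b and Acly was not tested.

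Cdkn1a is also on a list of 12 glucocorticoid-induced genes. All 12 had log2 fold changes below 0, and 4 of them passed (Fkbp5, Mt1, Cdkn1a and Errfi1). Of all tested genes, 4.26% were called lower and 50.1% lay above 0. The sum of the 12 was between 2864 and 3425 CPM in training and between 3094 and 4094 CPM in sedentary hearts. The part of glucocorticoids in the values of Cdkn1a, Ddit4 or Cited4 was not tested.

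Among 22 tested FOXO target genes, Bcl2l11, which encodes the pro-apoptotic protein BIM, was higher (0.37, adjusted p = 0.0369 from edgeR) and Cat, the catalase gene, lower (-0.19, adjusted p = 0.0281), each without overlap. The list moved in no common direction, with 10 genes above and 12 below 0. Pck1, a gluconeogenic enzyme singled out after its values were seen, had a log2 fold change of 1.60 that did not pass (SE 0.611, adjusted p = 0.164), with training hearts between 3.06 and 54.4 CPM and sedentary hearts between 1.76 and 13.5 CPM. Foxo1 was at -0.05 (adjusted p = 0.629) and Foxo3 at 0.05 (adjusted p = 0.839).

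Of the 17 genes around SRF and the cardiac factors linked to C/EBPβ, 3 passed and all were lower, and 12 of the 17 lay below 0. Of all tested genes, 4.26% were called lower and 50.1% lay above 0. Actc1, cardiac α-actin, was at 8022 ± 849 CPM (SD, n = 5) in training and 10470 ± 858 CPM (SD, n = 5) in sedentary hearts, a log2 fold change of -0.38 (adjusted p = 0.022 from edgeR). Hand2, a cardiac transcription factor, was at -0.24 (adjusted p = 0.0292) and Mrtfb, a co-activator of SRF, at -0.16 (adjusted p = 0.0788), each without overlap. With the atrial score in the model none of the 3 passed, Actc1 at -0.29 (adjusted p = 0.253 from edgeR), Hand2 at -0.15 (adjusted p = 0.370) and Mrtfb at -0.21 (adjusted p = 0.227). Srf was at -0.13 (adjusted p = 0.210) and Gata4 at 0.03 (adjusted p = 0.814). The 7 cardiomyocyte markers all had log2 fold changes below 0, with none passing. Myh6, Tnnt2 and Tnni3 are on both lists, so these are not separate observations.

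Cell type markers differed between the groups beside these genes. Of all tested genes, 2.75% were called higher and 4.26% lower, and 50.1% lay above 0. The 7 endothelial markers summed to between 884 and 953 CPM in training and between 980 and 1029 CPM in sedentary hearts, without overlap. Of them 6 had log2 fold changes below 0, and 2 passed, both lower. Of the 8 fibroblast markers 7 had log2 fold changes above 0, and 2 passed, both higher. Their sums were 1385 to 1729 CPM in training and 1216 to 1527 CPM in sedentary hearts. Of the 7 mural cell markers 3 had log2 fold changes above 0 and 4 below. Among them 2 passed as higher and 1 as lower (Rgs5, Tagln and Cnn1 in all). Their sums were 830 to 966 CPM in training and 881 to 999 CPM in sedentary hearts. Of the 7 atrial markers 7 had log2 fold changes above 0, and 3 passed, all higher. With the atrial score as a covariate, 4 pathway genes were called, 3 of which were among the 15 (Cdkn1a, Gab1 and Pik3r1). The other 12 of the 15 were not called in that model, which called 81 of all genes in place of 1084. Because the atrial score moved with the group, having it in the model also widens the error of the group difference. Among these 12, the log2 fold change of Ddit4 went from -0.90 to -0.39. That of Trib2 went from 0.19 to 0.22, with an SE of 0.0467 that became 0.0631. The part of cell composition in the values of the axis was not tested beyond these fits.

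**Figure D5:**
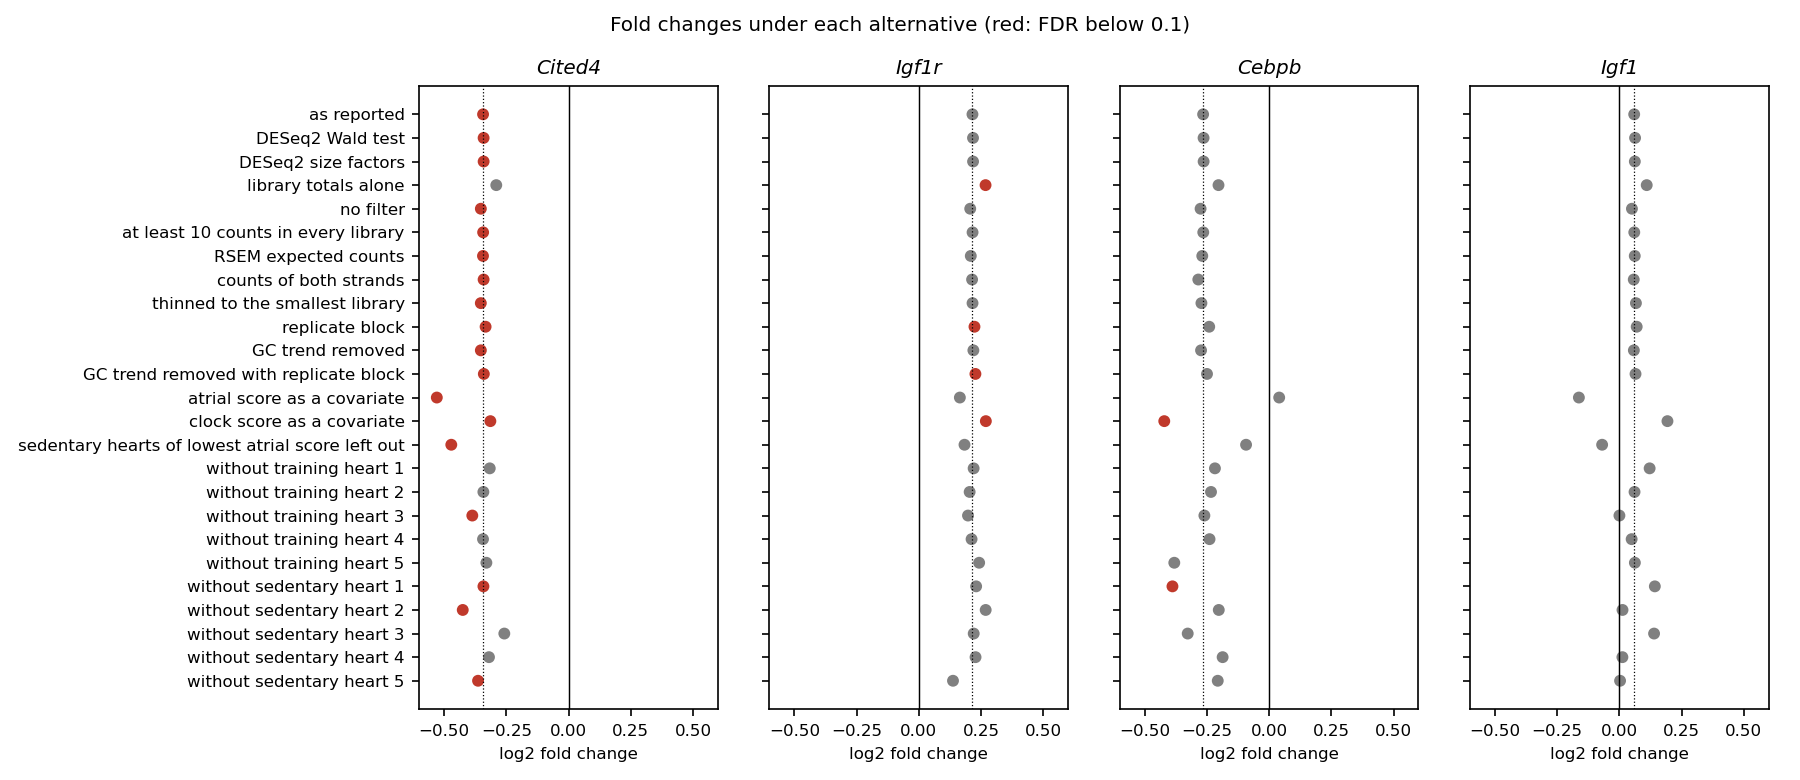
Log2 fold changes (x axes) of Cited4, Igf1r, Cebpb and Igf1 as reported and under each alternative (y axis); red marks an adjusted p below 0.1 and the dotted line the value as reported. Cited4 stays below 0 throughout, between -0.53 and -0.26, Igf1r stays above 0, and the points of Cebpb and Igf1 cross 0.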

How the data were processed

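Hearts of 5 training and 5 sedentary mice were profiled by directional poly-A RNA sequencing. As deposited, the STAR 2.7.10a count tables give raw, unnormalised counts per gene of reads with 1 place in GRCm39, of which the reverse-strand counts were used (94.9% to 95.7% of stranded counts). The authors also deposited RSEM 1.3.3 expected counts, unnormalised and rounded here, and TPM, which RSEM scales by length and library. The strand setting of RSEM is not given in the sources used here. Summary lines without a gene were dropped; multimapping reads made up 17.9% to 19.2%.

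Groups came from the treatment labels. Counts were fitted with edgeR 4.0.16 in R 4.3.3 (filterByExpr, TMM, quasi-likelihood F test, Benjamini-Hochberg adjustment over all tested genes, FDR below 0.1). CPM use TMM-corrected library sizes, and log2 CPM a prior count of 2. The fits were tested on simulated data. Nothing states that hearts came from separate litters or cages, so p-values measure the spread between these 10 hearts. Errors cover differences between hearts as well as counting.

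The members and lists were chosen with earlier results of these data known. Named were the 10 genes of the axis, the genes of each pathway list at an FDR below 0.1, close family members, and the 3 genes most correlated with a called gene. Some family members are not reported here. Alternatives were DESeq2 1.42.0, other normalisations, filters and kinds of count, thinning, GC correction by loess (span 0.3), the mouse number as a block, atrial and clock scores as covariates, an FDR below 0.05 and leaving out each heart. Leaving out the 2 sedentary hearts of lowest atrial score was added after seeing the data. Promoter sequences are from RefSeq on GRCm38.p6.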

Additional observations from a re-analysis of the deposited data

Results flagged for a closer look

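In 6 of 72 groups of 5 hearts, the gap of 1 heart to its nearest neighbour took up more of the range than Dixon's 95% limit for 5 values allows, beside 3.6 expected by chance at 1 in 20. Among the 10 genes of the axis this held for Cebpb alone, in training heart 5, at 61.2 CPM with the nearest training heart at 46.0 CPM (gap 0.732 of the range). Cebpd was at 10.9 CPM in sedentary heart 1, with the nearest at 21.8 CPM (0.713), in the same heart that had the lowest sedentary Cebpb. Cited2 was at 75.6 CPM in sedentary heart 2, with the nearest at 62.2 CPM (0.725). Actc1 was at 9516 CPM in training heart 2, with the nearest at 7777 CPM (0.823). Mrtfb was at 59.3 CPM in sedentary heart 4, with the nearest at 52.0 CPM (0.773). Sh2b2 was at 1.34 CPM in sedentary heart 5, with the nearest at 0.996 CPM (0.870).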

How the results depend on the processing

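Of the 10 genes of the axis, 1 was called as reported and 2 with the replicate block of mouse numbers (Cited4 and Igf1r, the latter at an adjusted p of 0.0636 from edgeR). There were 2 with the replicate block and the GC trend removed, 3 with the clock covariate, 0 at an FDR below 0.05, and 0 to 2 when each heart was left out. The calls over all tested genes were 1084 as reported, 1137 with the block and 1193 with the block and the GC trend removed. They were 1526 with the clock covariate and 512 to 1490 when each heart was left out. Over all tested genes, same-numbered hearts were hardly correlated (-0.097 to 0.159), and 1 of 5 training hearts correlated best with its own number. The labels do not say whether the numbers pair mice, and these correlations cannot decide it. The reported fit used no pairs. The block lowered the SE of Irs2 from 0.150 to 0.0894 and of Igf1r from 0.0803 to 0.0572, and raised it slightly for Pik3ca, Akt1 and Akt2. Cited4 passed in 13 of 14 other settings, not with library totals alone (-0.29, adjusted p = 0.128 from edgeR). That setting shifted the median of all genes to 0.053 and called 1029 genes higher and 339 lower.

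Log2 fold changes near 0 changed sign, and so did that of Cebpb, which was not near 0 as reported (-0.26). With the atrial covariate, Igf1 was at -0.16, Insr at 0.0031, Akt1 at 0.048 and Cebpb at 0.041. Without the 2 sedentary hearts of low atrial score, Igf1 was at -0.069 and Akt1 at 0.014. With library totals alone, Insr was at 0.038 and Akt1 at 0.037, and with the clock covariate Akt2 was at -0.012. Leaving out each heart gave -0.040 to 0.012 for Insr, -0.035 to 0.0074 for Akt1 and -0.010 to 0.044 for Akt2. The cause was not tested.

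Of the other pathway genes, 15 were called as reported, 9 at an FDR below 0.05, 4 with the atrial covariate, 6 without the 2 sedentary hearts of low atrial score (5 of the 15), 8 to 20 when each heart was left out, and 13 to 21 in the remaining settings. The calls over all tested genes moved as well, from 1084 as reported to 81 with the atrial covariate and 282 without the 2 hearts. They numbered 512 to 1490 when each heart was left out and 988 to 1526 in the remaining settings. At 5 hearts a group, a gene that did not pass may still differ by any value within its interval. The intervals are not limits of detection, since those of Igf1r and Irs1 leave out 0 and neither gene passed.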
